A study of Mus musculus with 14 samples.

Results

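The zinc finger genes of the mouse named Zfp with a number of 3 digits that starts with 9 form a numbered run of the family, with many members in a few gene clusters. The members described here were taken by name alone, as every row whose gene symbol was Zfp followed by exactly 3 digits starting with 9, leaving out Zfp932. The rule found 62 genes, numbered 930 to 995, among the 32667 genes of the table for spermatogonia and the 36888 genes of the table for spermatocytes, and all 62 were in both tables. The rule uses no measured value. In the annotation, 61 of the 62 were protein-coding and Zfp939 was a transcribed pseudogene.

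Polyadenylated RNA had been sequenced from germ cells sorted from the testes of Dnmt3CKO/KO mice, which lack the DNA methyltransferase that methylates promoters of young retrotransposons in fetal male germ cells, and of wild-type mice (KO and WT below), with all strains kept on a C57Bl6/J background. Spermatogonia (Spg), a fraction taken for germ cells before meiosis, came from mice at postnatal day 14, with 3 libraries per genotype. They were sorted as living cells with Ep-CAM and without β2-microglobulin, and also held early meiotic transcripts, as given below. Spermatocytes (Spc), the cells in meiosis, came from mice older than 20 days and were sorted on Hoechst staining, by DNA content and size, with 4 libraries per genotype. The labels speak of cells from littermates but do not say how many animals a library holds, so that p-values measure the spread between these libraries, which may partly be technical.

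Most proteins of this kind are KRAB zinc finger proteins. Their arrays of C2H2 zinc fingers bind particular DNA sequences, often inside retrotransposons, and their KRAB domain recruits the corepressor TRIM28, which in turn brings the histone methyltransferase SETDB1 and HP1 proteins to the site. The family has grown by tandem duplication, so that neighbours are often near-copies, and the targets of most single members are not established. Loss of Dnmt3C exposes retrotransposon promoters in germ cells. The question addressed here is how the genes of this group were expressed in sorted spermatogonia and spermatocytes, with and without the methyltransferase.

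The sequence around the start site was taken from RefSeq (GRCm38.p6), as 250 bases before to 50 bases after the start, and 52 of the 62 members had an entry. The promoters of 4 members are printed, chosen after their values were seen, because these genes carry the changes described below in each direction. Zfp956 (chr6:47953140-47953439, plus strand) and Zfp938 (chr10:82241231-82241530, minus strand) were lower in KO than in WT spermatocytes, and Zfp948 (chr17:21566728-21567027, plus strand) and Zfp963 (chr8:69749913-69750212, minus strand) were higher. Each is written 5′ to 3′ along its gene, and capitals mark the box CCAAT or, on the other strand, ATTGG.
Zfp956: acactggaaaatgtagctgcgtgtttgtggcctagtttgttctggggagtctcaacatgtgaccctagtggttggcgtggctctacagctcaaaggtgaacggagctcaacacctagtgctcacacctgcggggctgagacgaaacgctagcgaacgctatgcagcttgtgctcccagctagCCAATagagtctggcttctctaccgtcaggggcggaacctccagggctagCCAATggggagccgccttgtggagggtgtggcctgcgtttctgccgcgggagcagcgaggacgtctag
Zfp938: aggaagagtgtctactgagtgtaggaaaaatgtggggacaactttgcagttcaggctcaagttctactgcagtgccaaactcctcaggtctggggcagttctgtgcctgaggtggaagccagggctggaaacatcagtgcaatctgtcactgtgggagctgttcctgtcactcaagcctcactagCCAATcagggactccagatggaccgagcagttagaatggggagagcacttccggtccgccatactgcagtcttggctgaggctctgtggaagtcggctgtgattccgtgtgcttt
Zfp948: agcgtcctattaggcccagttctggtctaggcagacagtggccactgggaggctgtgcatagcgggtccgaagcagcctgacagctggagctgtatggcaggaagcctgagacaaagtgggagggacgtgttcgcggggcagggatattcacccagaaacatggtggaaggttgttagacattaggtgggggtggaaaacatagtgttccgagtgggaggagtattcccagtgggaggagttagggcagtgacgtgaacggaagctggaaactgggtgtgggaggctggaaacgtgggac
Zfp963: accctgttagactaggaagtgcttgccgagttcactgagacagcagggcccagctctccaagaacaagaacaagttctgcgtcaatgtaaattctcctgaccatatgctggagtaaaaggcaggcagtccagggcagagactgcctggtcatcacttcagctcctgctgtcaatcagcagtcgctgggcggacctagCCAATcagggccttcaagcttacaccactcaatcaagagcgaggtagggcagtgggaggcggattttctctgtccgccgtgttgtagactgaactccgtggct

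The CCAAT box, searched on both strands, was present in 39 of the 52 member promoters (75%) against 37.92% of the 27025 RefSeq promoters of the same length. Zfp956 carried 2 copies, Zfp938 and Zfp963 carried 1 each, and Zfp948 carried none. Among members that rose in KO spermatocytes 11 of 14 promoters held the box, among those that fell 2 of 3, and among those tested but not called 23 of 31. The falling member without the box was Zfp993, whose RefSeq window (chr4:146512599-146512898) lay outside its annotated gene (146610961-146658160) and may not be its promoter. The windows of Zfp935, Zfp936 and Zfp981 lay inside their genes, away from the annotated starts. The palindromic motif of NRF1, a methylation-sensitive activator, was searched by exact match and was in 0 of the 52 windows against 0.9769% of all promoters. The MYB motif TAACNG, on either strand, was in 11 (21.15%) against 23.16%. CpG dinucleotides numbered from 3 to 24 per window, with a median of 7.5 against 7 in all promoters, and were 16 in Zfp956, 5 in Zfp938, 10 in Zfp948 and 9 in Zfp963. Near-copies among the members share promoter sequence, so that these shares do not count independent sequences, and a match describes letters only.

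The members lay on 12 chromosomes, and 42 of them stood in 5 clusters of at least 3 members less than 1 Mb apart. The largest cluster, on chromosome 4, held 16 members within 2337.6 kb, the next, on chromosome 17, held 10, and one on chromosome 2 held 9. In the reference proteins a KRAB signature was found in 55 of 61 members against 1.4204% of all proteins, and at least 3 C2H2 zinc fingers in 57 of 61 against 2.6788%. The number of fingers ran from 0 in Zfp935, Zfp957 and Zfp972 to 21 in Zfp974, with a median of 11. The signature was not found in Zfp945, Zfp950, Zfp956, Zfp957, Zfp972 and Zfp974. Zfp956, the most abundant member in WT spermatocytes, carried 6 fingers in 572 residues and no KRAB signature by this search.

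Several proteins were near-identical. Zfp966, Zfp967 and Zfp969 were 100% identical to each other, as were Zfp965 and Zfp973, while Zfp991 and Zfp992 shared 98.95% of their residues. The pairs Zfp947 and Zfp995 (90.39%), Zfp987 and Zfp988 (90.36%) and Zfp987 and Zfp989 (90.32%) were also above 90%. Reads from such transcripts cannot all be assigned to 1 gene. Of the windows of 100 bases in each member's transcripts, over 10% matched another gene exactly in 25 members and over 50% in 12, and none did in 15. For Zfp956 the share was 3.205%, for Zfp938, Zfp948 and Zfp930 it was 0, and for Zfp992, Zfp991 and Zfp993 it was 28.6%, 70.34% and 71.854%. Values of members with large shares are uncertain between near-copies, and this limit applies to them throughout. Of the 21 members called between genotypes in spermatocytes, 11 shared over 10% of their windows and 5 shared none.

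Total counts per library ran, in units of 1000000, from 40.556 to 49.333 in spermatogonia and from 44.883 to 53.324 in spermatocytes. In spermatogonia, counts of Dnmt3c itself ran from 58 to 116 in KO libraries and from 53 to 89 in WT libraries. In spermatocytes they ran from 52 to 57 and from 11 to 28, and the gene did not pass the test at either stage. Because counts cover the whole gene and the deleted part was not given in the sources used here, this value does not check the labels. Libraries of replicates 1 and 4 of spermatocytes were much more alike than other pairs in both genotypes (chi-square per degree of freedom of 11.6 in KO and 14.87 in WT, against 129.3 to 285.9 for the other pairs), but differed by more than sampling noise and were kept apart. Counts of called members with replicates 1 and 4 summed stand beside each comparison that uses spermatocytes.

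Most marker lists differed between the sorted fractions. The 8 pachytene markers summed to between 10970 and 19470 CPM in WT spermatocytes, lowest in replicate 3, and to between 353.1 and 643.8 CPM in KO spermatocytes, with no marker at 0, where CPM stands for counts per 1000000 scaled by TMM factors. The 6 spermatid markers measured summed to 240.5 to 1328 CPM in WT and 2.526 to 9.036 CPM in KO spermatocytes. The 10 spermatogonial markers summed to 168.4 to 439.7 CPM in WT and 455.5 to 1161 CPM in KO spermatocytes, against 1217 to 1865 CPM in spermatogonia. Of the 10, 7 were called higher in KO spermatocytes and Id4 was called lower, at 161.6 CPM in WT and 6.069 CPM in KO. Gfra1 (5.704 CPM in WT and 5.041 CPM in KO) and Sohlh1 (5.332 and 34.87 CPM) were not called. The other 9, without Id4, summed to 37.71 to 283.6 CPM in WT and 448.6 to 1157 CPM in KO spermatocytes. The sums of the 7 early meiotic markers overlapped between genotypes in spermatocytes (1314 to 2368 CPM in WT and 1197 to 2298 CPM in KO). Among single markers, Dmc1, Prdm9 and Meiob were called higher and Spo11 lower in KO, while Sycp1, Sycp3 and Hormad1 overlapped. The sums of the 3 erythroid markers measured overlapped too (1.477 to 7.426 and 1.003 to 9.764 CPM). Leydig markers (6 genes) reached 64.44 to 458 CPM in KO against 15.58 to 34 CPM in WT spermatocytes, macrophage markers (6 genes) 24.76 to 129.2 against 4.452 to 6.635 CPM, peritubular markers (5 genes) 17.37 to 171.7 against 3.618 to 10.91 CPM, and Sertoli markers (8 genes) 317.4 to 1148 against 144.6 to 559.4 CPM. The part of these differences in the member values below was not tested, and in such bulk samples fewer cells of a type and less RNA per cell cannot be told apart. In spermatogonia the pachytene markers summed to 631.2, 2023 and 370.6 CPM in WT replicates 1 to 3 and to 214.6 to 246.6 CPM in KO. The early meiotic markers summed to 961.6 to 1195 CPM in WT and 649.1 to 1057 CPM in KO spermatogonia. The spermatogonia fraction thus also held early meiotic transcripts. Between the WT fractions 2 of these 7 markers were called higher in spermatocytes (Spo11 and Hormad1) and 2 lower (Dmc1 and Prdm9).

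Nearly all members were expressed at low levels. In WT spermatogonia the median level was 1.5635 CPM per kb of exon and 49 of the 62 members had a mean of at least 1 CPM. Per kb, Zfp956 was highest (10.18 ± 4.69, SD, n = 3), followed by Zfp961 (6.85 ± 1.80), Zfp942 (6.41 ± 1.22), Zfp944 (5.11 ± 0.84) and Zfp958 (4.60 ± 0.57). Each of these neighbours in the order overlapped with the next in its libraries. In WT spermatocytes the order was steeper, with Zfp956 at 137.0 ± 61.1 CPM per kb (n = 4) and Zfp992 at 20.9 ± 9.96, both without overlap with the next, and then Zfp944 (7.67 ± 2.93), Zfp993 (7.52 ± 4.46) and Zfp991 (7.2 ± 3.82), which overlapped. Zfp957, Zfp967 and Zfp969 were too low to be tested in any comparison, and Zfp965, Zfp967 and Zfp969 had at most 3 counts in every WT spermatocyte library.

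**Figure D1:**
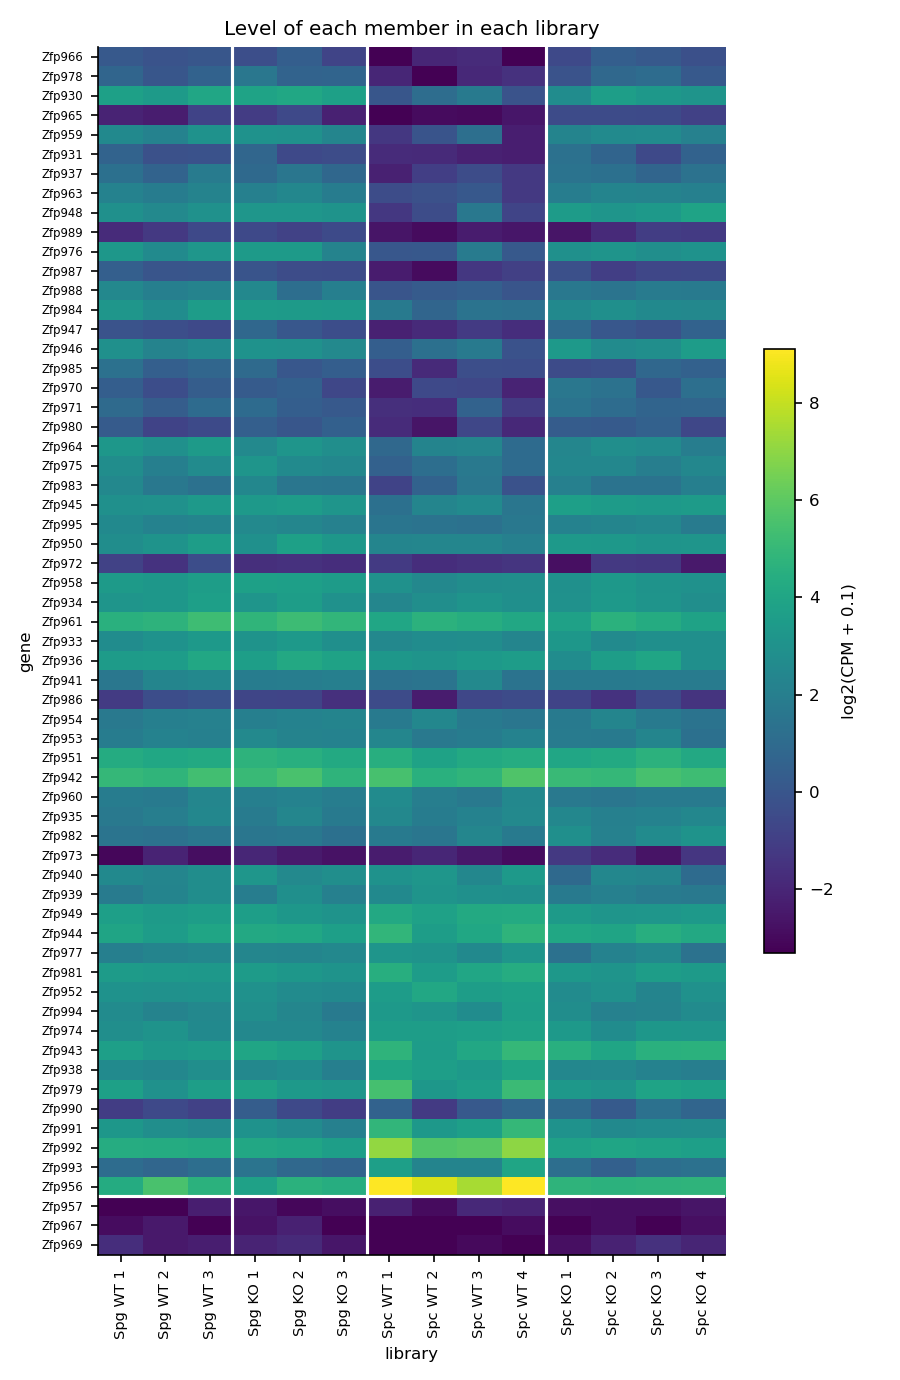
Level of each of the 62 members (1 line each, ordered by the log2 fold change between WT spermatocytes and WT spermatogonia, with the 3 untested genes last) in each of the 14 libraries (columns), as log2 of CPM plus 0.1. Lines at the top are darker in the 4 WT spermatocyte libraries than in most other libraries, and Zfp956, the last tested line, is brightest there.

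Between the WT fractions single members shifted strongly, most of them downward. A gene was called at a Benjamini-Hochberg adjusted p under 0.01 in edgeR's quasi-likelihood test, fitted over all genes and transposable element (TE) subfamilies. Between WT spermatocytes and WT spermatogonia 25 of the 59 members tested were called (42.4%, where 51.4% of all features were), 5 of them higher and 20 lower in spermatocytes, and the median log2 fold change of the members was −0.55 against 0.06 for all features. The groups did not overlap in 36 members, where 65.2% of all features had groups that did not. The called share was 8.47% for higher (28.9% of all features) and 33.9% for lower (22.5% of all features). With library totals in place of TMM factors, under which the median over genes went from 0.02 to −0.76, the split was 3 higher and 31 lower. With replicates 1 and 4 summed, 17 members were called, 4 higher and 13 lower, and without WT spermatocyte replicate 1 the count was 16.

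Zfp956 (chr6:47953390-47965300, plus strand) had the largest rise. Its level was 20.1, 46.1 and 24.5 CPM in the WT spermatogonia libraries and 549.7, 339.1, 180.9 and 557.3 CPM in the WT spermatocyte libraries. The groups did not overlap, and replicate 3 was lowest among spermatocytes and replicate 2 highest among spermatogonia, as with the pachytene markers. The difference was 13.5-fold (3.75 ± 0.42 on the log2 scale, with the SE, and edgeR adjusted p = 1.229e-05). Zfp956 alone made up 44.9% ± 9.1 (SD, n = 4) of all member counts in WT spermatocytes, with 49.44%, 49.19%, 31.26% and 49.73% in replicates 1 to 4, against 7.28% ± 3.87 (n = 3) in WT spermatogonia. The summed level of all members was 875.2 ± 282.1 CPM in WT spermatocytes and 424.3 ± 39.1 CPM in WT spermatogonia, and without Zfp956 the sums were 468.4 ± 110.7 and 394.1 ± 48.5 CPM. In CPM taken over the library totals, without TMM factors, the sum of all members was 577 ± 114.8 in WT spermatocytes and 509.8 ± 28.8 in WT spermatogonia, and without Zfp956 the direction turned, at 313.8 ± 51.3 and 473.2 ± 42.2.

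The other 4 members that rose were Zfp992, Zfp993 and Zfp991, all in the chromosome 4 cluster, and Zfp938 on chromosome 10. Zfp992 had 21.1, 20.3 and 19.0 CPM in WT spermatogonia and 139.8, 53.3, 58.5 and 127.9 CPM in WT spermatocytes, a 4.71-fold rise (edgeR adjusted p = 7.846e-05). In this gene, as in Zfp993 and Zfp991, replicates 1 and 4 stood well above replicates 2 and 3. Zfp993, which has only 2 zinc fingers, rose 4.97-fold (edgeR adjusted p = 0.0007763) and Zfp991 2.85-fold (edgeR adjusted p = 0.005591). Because Zfp993 shared 68.452% and Zfp992 24.826% of their windows with Zfp991, the 3 genes are not independent readings. Zfp938, with no shared window, had 6.19, 5.29 and 6.95 CPM in WT spermatogonia and 15.9, 12.6, 10.6 and 15.5 CPM in WT spermatocytes, and rose 2.22-fold (edgeR adjusted p = 0.002953). With library totals Zfp991 and Zfp938 no longer passed (edgeR adjusted p = 0.155 and 0.342). Of the 7 fits that left out a WT library, Zfp991 was called in 2 and Zfp938 in 4, and Zfp991 was not called with replicates 1 and 4 summed (edgeR adjusted p = 0.0208).

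Members lower in WT spermatocytes than in WT spermatogonia fell by up to 9.76-fold. Zfp930 (chr8:69209038-69230536) dropped from 13.3, 10.9 and 16.6 CPM in WT spermatogonia to 0.895, 2.08, 3.31 and 0.8 CPM in WT spermatocytes, a 7.62-fold fall (edgeR adjusted p = 8.856e-05). Zfp963, in the same cluster on chromosome 8, went from 4.53, 3.64 and 4.70 CPM to 0.648, 0.7535, 0.958 and 0.313 CPM, 6.36-fold lower (edgeR adjusted p = 3.458e-05). The groups of both genes were far apart. Among the next, Zfp959 fell 7.0-fold, Zfp931 6.63-fold, Zfp937 6.42-fold and Zfp948 6.02-fold, with edgeR adjusted p-values from 0.0002866 to 0.00186. The largest folds, of Zfp966 (9.76-fold) and Zfp978 (9.10-fold), rested on 0 to 8 counts per WT spermatocyte library. Zfp931 had 6, 6, 5 and 3 counts in these libraries, and the lowest counts were 4 for Zfp937 and 3 for Zfp959. Some of these members, such as Zfp948 and Zfp959, were highest in replicate 3 of WT spermatocytes, the WT library with the lowest pachytene sum and the highest spermatid, early meiotic, spermatogonial and Sertoli sums, and without it the falls were 14.33-fold for Zfp948, 14.35-fold for Zfp959, 16.49-fold for Zfp966 and 8.33-fold for Zfp976.

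**Figure D2:**
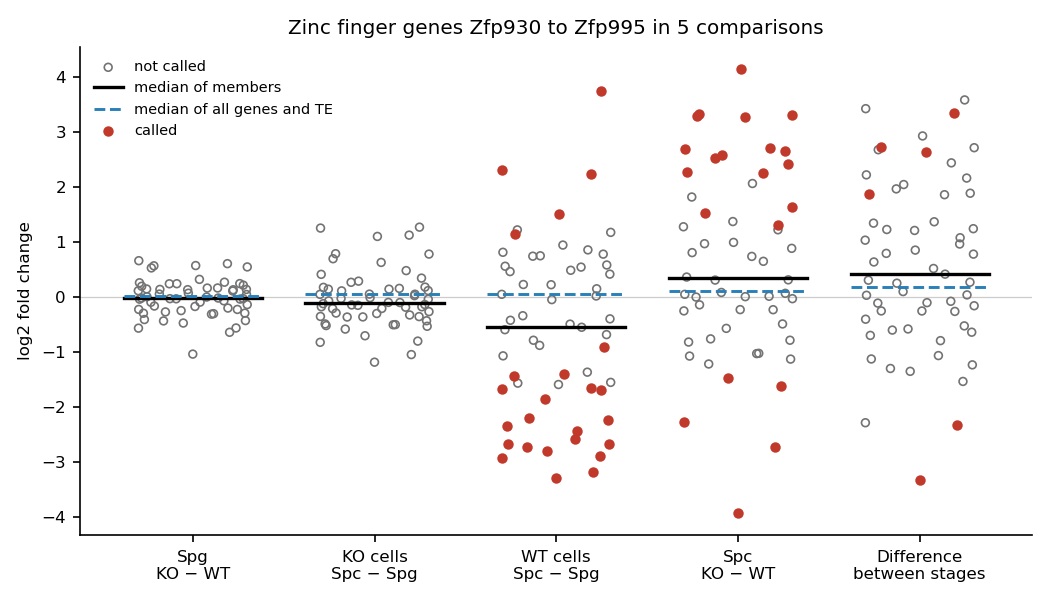
Log2 fold change of every tested member (points) in the 5 comparisons, with filled red points for members called at an edgeR adjusted p under 0.01, a black line for the median of the members and a dashed line for the median of all genes and TE subfamilies. Points stay between −1.19 and 1.27 in spermatogonia and in the comparison of KO cells, where no member was called, and spread from −3.93 (Zfp956 between genotypes) to 3.75 (Zfp956 between stages) in the comparisons with WT spermatocytes, apart from Zfp965, whose fitted values rest on WT libraries at the floor.

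In the spermatogonia fraction, loss of Dnmt3C left no call among the members. In spermatogonia 0 of the 58 tested members were called between KO and WT, where 0.0741% of all features were (0.0695% higher and 0.00463% lower), and 0 had an unadjusted p under 0.05. DESeq2's Wald test also called 0, with 1 at an unadjusted p under 0.05, and the fit with the replicate number as a block called 0, with 2. Log2 fold changes ran from −1.04 (Zfp972) to 0.66 (Zfp980), with a median of −0.02 against 0.02 for all features, and 28 were above 0 and 30 below. The groups did not overlap in 6 members (Zfp948, Zfp952, Zfp972, Zfp974, Zfp987 and Zfp992), in a table where 11.9% of features had groups that did not overlap. Zfp956 had 13.97, 24.7 and 21.3 CPM in KO and 20.1, 46.1 and 24.5 CPM in WT spermatogonia, with a log2 fold change of −0.64 ± 0.36 (SE). The summed level of the members was 427.0 ± 54.8 CPM in KO and 424.3 ± 39.1 CPM in WT (n = 3 each).

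In spermatocytes 21 members passed the test between genotypes and 35 did not. Of the 56 tested, 21 were called (37.5%, where 57.4% of all features were), 16 higher and 5 lower in KO. The share higher was 28.6% against 27.4% of all features, and the share lower 8.93% against 30.1%. Among the other genes named Zfp, 181 of 335 were called, 100 higher and 81 lower. The median log2 fold change of the members was 0.34 against 0.11 for all features, and the groups did not overlap in 31 members, where 67.5% of features had groups that did not. With replicates 1 and 4 summed, 9 members were called, 7 higher and 2 lower. The shares of all features given here belong to the main fit and not to this one. Under library totals, under which the median over genes went from 0.11 to 0.79, 21 were called higher and 2 lower.

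Zfp956 fell the most. Its level was 27.2, 25.3, 26.5 and 27.5 CPM in the KO libraries and 549.7, 339.1, 180.9 and 557.3 CPM in the WT libraries. The lowest WT library was thus far above the highest KO library, and the KO values lay close together. The fold change was 15.2-fold lower in KO (−3.93 ± 0.37 on the log2 scale, with the SE, and edgeR adjusted p = 1.917e-05). The call held whichever library was left out and with replicates 1 and 4 summed (edgeR adjusted p = 0.000347). In KO spermatocytes Zfp956 made up 6.56% ± 0.37 (SD, n = 4) of member counts, and the summed level of the members was 406.2 ± 18.2 CPM against 875.2 ± 282.1 CPM in WT. Without Zfp956 the sums were 379.6 ± 18.2 and 468.4 ± 110.7 CPM. In CPM taken over the library totals, without TMM factors, the sum of all members was 456.7 ± 45.5 in KO and 577 ± 114.8 in WT, and without Zfp956 the direction turned, at 426.9 ± 44.2 in KO and 313.8 ± 51.3 in WT. This comparison shares its WT libraries with the stage comparison in WT cells, so that a value high or low in WT spermatocytes enters both.

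The chromosome 4 genes Zfp992, Zfp993 and Zfp991 and the chromosome 10 gene Zfp938 were also lower in KO. Zfp992 had 13.9, 15.6, 14.5 and 13.1 CPM in KO and 139.8, 53.3, 58.5 and 127.9 CPM in WT, 6.64-fold lower (−2.73 ± 0.37 on the log2 scale, edgeR adjusted p = 0.0001441). Zfp993 had 2.14, 1.29, 2.13 and 2.36 CPM in KO and 13.0, 4.76, 4.74 and 15.8 CPM in WT, 4.83-fold lower (edgeR adjusted p = 0.002723). Zfp991 had 8.02, 5.80, 6.62 and 6.86 CPM in KO and 29.6, 9.89, 13.0 and 31.6 CPM in WT, 3.08-fold lower (edgeR adjusted p = 0.006681). In all 3 the groups were apart and replicates 2 and 3 of WT were the lower pair, closest to KO in Zfp991. Zfp938 had 5.40, 5.59, 4.48 and 3.93 CPM in KO and 15.9, 12.6, 10.6 and 15.5 CPM in WT, 2.79-fold lower (edgeR adjusted p = 0.00169). The calls of Zfp993, Zfp991 and Zfp938 were lost with replicates 1 and 4 summed (edgeR adjusted p = 0.0202, 0.046 and 0.0216) and with library totals (0.0122, 0.0685 and 0.0523).

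**Figure D3:**
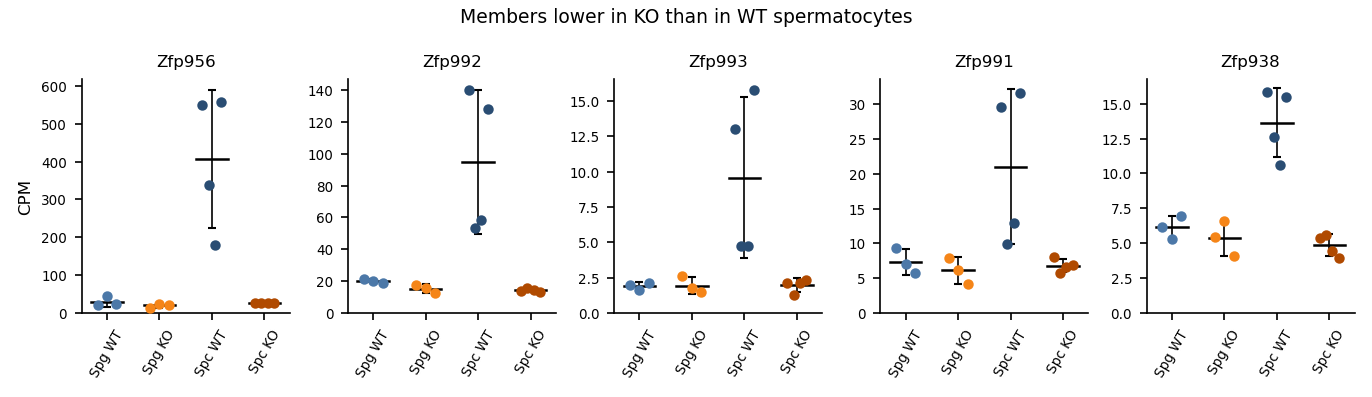
CPM of the 5 members lower in KO than in WT spermatocytes, by library (points) in the 4 groups, with the mean (line) and SD (bar), on linear axes that start at 0 and differ between panels. Only the WT spermatocytes stand out in each panel, and in Zfp992, Zfp993 and Zfp991 their 4 points fall into a high and a low pair.

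Members higher in KO spermatocytes were mostly low genes. Zfp948 (chr17:21567008-21588699, plus strand), with 15 zinc fingers, had 11.2, 8.87, 10.4 and 14.7 CPM in KO and 0.309, 0.633, 3.11 and 0.487 CPM in WT. Replicate 3 was the highest WT library, still below every KO library. The difference was 10.1-fold (3.34 ± 0.70 on the log2 scale, with edgeR adjusted p = 0.001873), and with replicates 1 and 4 summed the call was lost (edgeR adjusted p = 0.0108). Without WT replicate 3 the difference was 23.91-fold. Zfp963 had 3.80, 4.80, 4.59 and 4.16 CPM in KO and 0.648, 0.7535, 0.958 and 0.313 CPM in WT, 6.57-fold higher (2.72 ± 0.40 on the log2 scale, edgeR adjusted p = 0.0002581), and this call held under every alternative run. About 36.221% of its windows matched other genes.

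Zfp931 had 2.41, 1.52, 0.572 and 1.43 CPM in KO and 0.185, 0.181, 0.120 and 0.104 CPM in WT, a difference of 3.32 ± 0.53 on the log2 scale (edgeR adjusted p = 0.0003899). Zfp937 had 2.55, 2.29, 1.54 and 2.48 CPM in KO and 0.123, 0.392, 0.647 and 0.313 CPM in WT, 6.05-fold higher (edgeR adjusted p = 0.001024). Both were apart in all libraries and stayed called with replicates 1 and 4 summed. Zfp959 had 4.73, 6.20, 6.35 and 4.30 CPM in KO and 0.309, 0.844, 2.2 and 0.104 CPM in WT, 6.34-fold higher (edgeR adjusted p = 0.008154), but remained called in only 1 of the 8 fits that left out 1 library. Zfp970 (6.51-fold), Zfp978 (9.82-fold) and Zfp966 (9.71-fold) had edgeR adjusted p-values from 0.002158 to 0.004035 and between 0 and 22 counts per WT library, and the calls of Zfp970 and Zfp966 were lost in 1 and 2 of the 8 fits and, like that of Zfp959, with replicates 1 and 4 summed. Zfp965, with 0, 1, 1 and 2 counts in WT and 31, 35, 31 and 21 counts in KO, was called too (edgeR adjusted p = 0.0002314), and no fold is given because WT was at the floor of 3 counts. Zfp930, Zfp945, Zfp946, Zfp947, Zfp976, Zfp984 and Zfp988 completed the 16, with log2 fold changes from 1.32 to 2.54. Without WT replicate 3 the differences were 12.93-fold for Zfp959, 16.39-fold for Zfp966 and 8.023-fold for Zfp976.

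**Figure D4:**
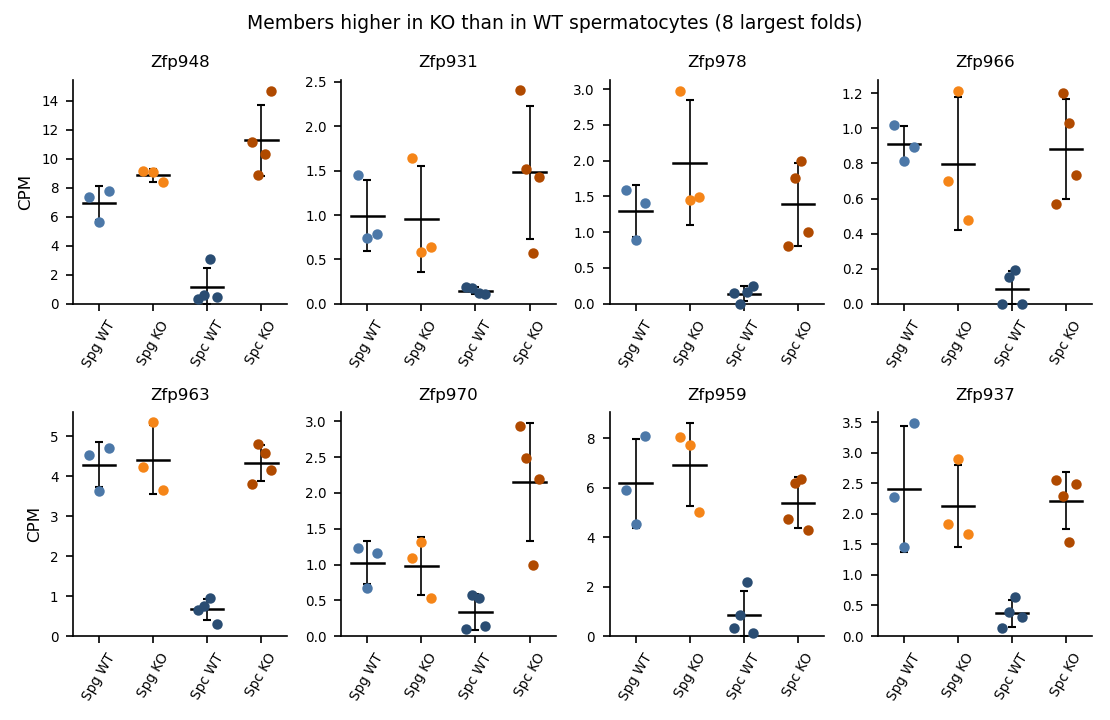
CPM of the 8 members with the largest called rise in KO spermatocytes and a mean count of at least 20, by library (points) in the 4 groups, with the mean (line) and SD (bar), on linear axes that start at 0 and differ between panels. In every panel the 4 WT spermatocyte libraries are low, from 0 to 3.11 CPM, and below each KO spermatocyte library.

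The KO effect itself differed between the stages for 6 of the 59 members tested (24.9% of all features), 4 with a more positive effect in spermatocytes (10.7% of all features) and 2 with a more negative one (14.3%), and 26 had an unadjusted p under 0.05. The differences of log2 fold changes were 3.36 ± 0.77 (SE) for Zfp931, 2.74 ± 0.66 for Zfp937, 2.64 ± 0.49 for Zfp963 and 1.88 ± 0.48 for Zfp988. They were −3.34 ± 0.52 for Zfp956 and −2.33 ± 0.44 for Zfp992. Their edgeR adjusted p-values ran from 0.000445 to 0.006817. With the replicate number as a block Zfp937 was not called (edgeR adjusted p = 0.0205), and the other 5 were. Zfp956, Zfp963 and Zfp992 stayed called whichever of the 14 libraries was left out, and were the 3 called with replicates 1 and 4 summed. The count was 17 without WT spermatocyte replicate 3, 3 without KO spermatogonia replicate 3 and 13 under library totals, 11 of them positive. Without KO spermatogonia replicate 1 the difference for Zfp931 was 4.08 on the log2 scale.

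Between KO spermatocytes and KO spermatogonia 0 of 59 members were called, where 2.99% of all features were (2.95% higher and 0.0355% lower), and 8 had an unadjusted p under 0.05. DESeq2's Wald test called 2, both higher in spermatocytes, and edgeR called 0 with replicates 1 and 4 summed. Log2 fold changes ran from −1.19 (Zfp989) to 1.27 (Zfp982), with a median of −0.10, and the groups did not overlap in 12 members (26.2% of all features). For Zfp956 the levels were 13.97, 24.7 and 21.3 CPM in KO spermatogonia and 27.2, 25.3, 26.5 and 27.5 CPM in KO spermatocytes, a difference of 0.41 ± 0.36 (SE) on the log2 scale (edgeR adjusted p = 0.5015). The pachytene markers summed to 214.6 to 246.6 CPM and 353.1 to 643.8 CPM in these 2 groups, and the part of cell composition was not tested.

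Along the chromosomes, members of a cluster did not all move alike. Beside the counts below, 27.4% of all features were called higher and 30.1% lower in KO than in WT spermatocytes. On chromosome 4, Zfp978, Zfp984 and Zfp988 rose and Zfp991, Zfp992 and Zfp993 fell in KO spermatocytes, out of 15 tested, within the same 2337.6 kb. In that order these genes shared 60.5%, 30.9%, 44.6%, 70.3%, 28.6% and 71.9% of their windows with other genes, so their values are uncertain between near-copies. The calls of Zfp984 and Zfp991 each held in only 2 of the 8 fits that left out 1 library. With replicates 1 and 4 summed Zfp984, Zfp988, Zfp991 and Zfp993 were not called (edgeR adjusted p = 0.0311, 0.0195, 0.046 and 0.0202), and Zfp978 and Zfp992 were. On chromosome 17, Zfp945, Zfp946, Zfp947 and Zfp948 rose and none of the 10 was called lower, with a median log2 fold change of 1.05. Zfp945 was called in 4 of those 8 fits, and with replicates 1 and 4 summed Zfp945, Zfp946 and Zfp948 were not called (edgeR adjusted p = 0.035, 0.0166 and 0.0108). Zfp983, Zfp995, Zfp942, Zfp943, Zfp944 and Zfp994, between them on the chromosome, had log2 fold changes of 1.28, 0.81, 0.01, 0.00, −0.23 and −0.79. None of them was called. On chromosome 2, 4 of the 5 members tested rose (Zfp931, Zfp965, Zfp966 and Zfp970), but 4 of its 9 members were not tested and the near-copies Zfp965 and Zfp966 share most of their sequence with others. On chromosome 8, Zfp930 and Zfp963 rose and Zfp964 had a log2 fold change of 0.74. Outside clusters of at least 3 members, 2 members rose and 2 fell of 19 tested.

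**Figure D5:**
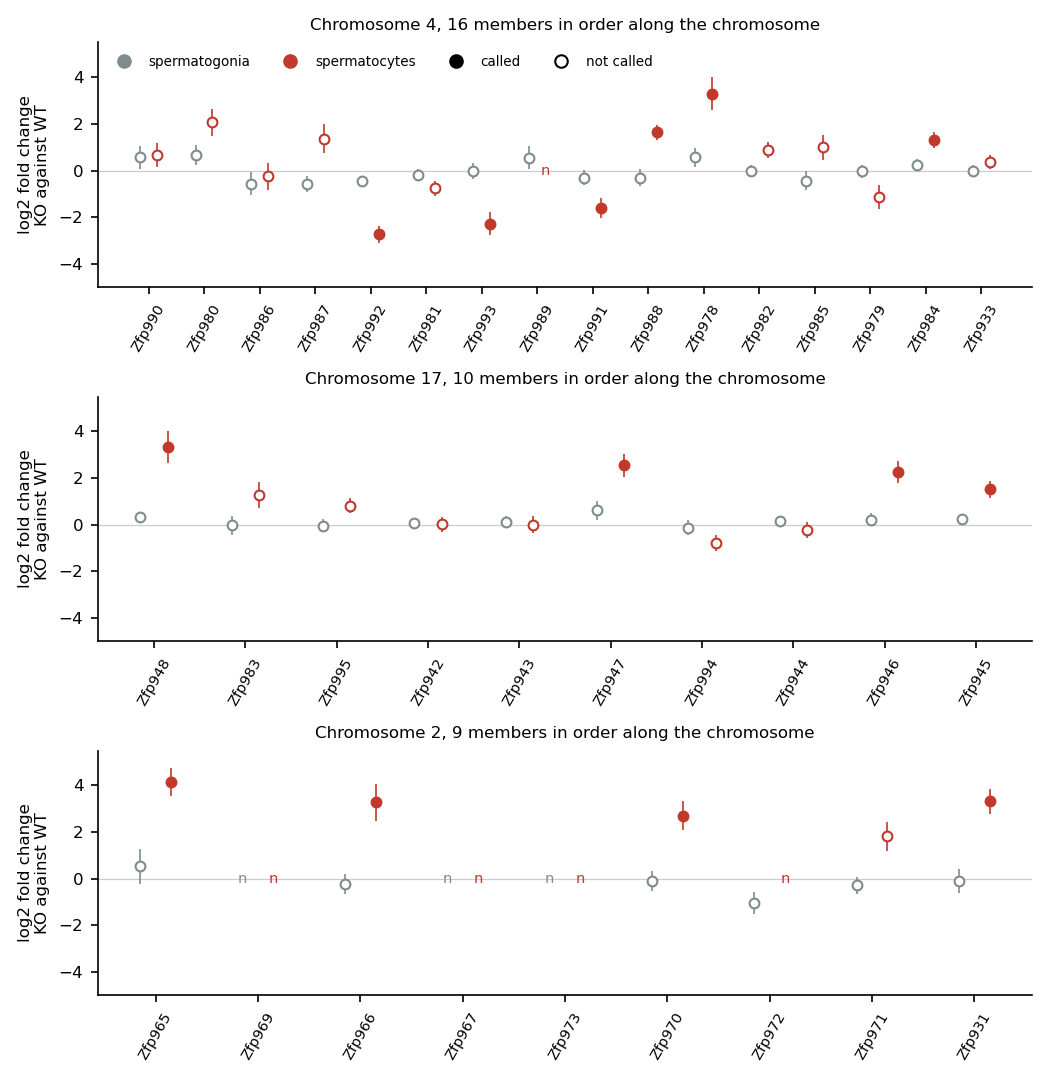
Log2 fold change of KO against WT (points, with SE as bars) for the members of the 3 largest clusters, in their order along the chromosome, in spermatogonia (grey) and spermatocytes (red), with filled points for called members and the letter n for members not tested. Grey points lie between −1.04 (Zfp972) and 0.66 (Zfp980), none of them called, while red points lie on both sides of 0 on chromosome 4 and mostly above it on chromosomes 17 and 2.

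Some of the more abundant members were not called. Zfp942 had 34.9, 31.3, 44.9 and 38.7 CPM in KO and 45.6, 23.4, 28.3 and 52.3 CPM in WT spermatocytes, with overlapping groups. Zfp944 had 17.0, 15.5, 22.1 and 17.98 CPM in KO and 29.4, 11.9, 17.2 and 26.8 CPM in WT. Zfp961 had 13.6, 24.4, 20.1 and 14.1 CPM in KO and 16.2, 25.9, 21.6 and 17.4 CPM in WT. These 3 genes were not called in any of the 5 comparisons, which does not show that their levels were equal. Zfp974, the member with the most zinc fingers, had 10.6, 6.49, 9.55 and 9.31 CPM in KO and 12.01, 12.1, 12.8 and 14.1 CPM in WT, apart but not called.

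Of 25 genes listed for silencing by KRAB zinc finger proteins and related chromatin repression, 24 were in both tables. In KO spermatogonia edgeR called 0 of them, with 0 at an unadjusted p under 0.05, and DESeq2 called 0. In KO spermatocytes 6 fell (Trim28, Daxx, Hdac1, Mphosph8, Zmym2 and Uhrf1) and 5 rose (Atrx, Smarcad1, Pphln1, Cbx3 and Hdac2), which is 45.8% of the list where 57.4% of all features were called. Of these, 6 were called with replicates 1 and 4 summed (Trim28, Daxx, Mphosph8, Atrx, Smarcad1 and Cbx3). Hdac2 and Uhrf1 were each called in 1 and Zmym2 in 2 of the 8 fits that left out 1 library. Trim28, the corepressor bound by the KRAB domain, was at 419.6 ± 24.7 CPM in KO and 1191 ± 225.3 CPM in WT spermatocytes (−1.49 ± 0.21 on the log2 scale, edgeR adjusted p = 0.0001775), and at 441.3 and 477.1 CPM in KO and WT spermatogonia. Atrx, a chromatin remodeller, was at 80.3 ± 18.9 CPM in KO and 6.87 ± 6.84 CPM in WT spermatocytes (3.59 ± 0.60 on the log2 scale, edgeR adjusted p = 0.0005277). Without WT replicate 3 its difference was 4.53 on the log2 scale. Setdb1, the H3K9 methyltransferase, had 241.2 ± 14.1 and 238.2 ± 30.1 CPM. With library totals Uhrf1, Zmym2 and Hdac1 no longer passed, at edgeR adjusted p = 0.866, 0.983 and 0.0259.

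Copies of young retrotransposons lay inside or within 5000 bases of 21 members, 45 copies in all. Their levels were given as TPM over TE copies alone, without genes, and are described without a test. A mean of at least 0.5 TPM in a genotype was reached by 16 copies at 10 members in spermatogonia and by 14 copies at 8 members in spermatocytes. At each stage 12 of these copies had the higher mean in KO. An IAPEY4_LTR copy near Zfp974 went the other way in spermatogonia, at 0, 0 and 0 TPM in KO and 2.08, 0.372 and 1.998 TPM in WT. In spermatocytes the groups of that copy overlapped. An IAPLTR1_Mm element (chr13:62479769-62480149, 381 bp), at the edge of Zfp934 and inside Zfp935 on their strand, had 5.43, 4.61 and 5.41 TPM in KO spermatogonia and 0, 0.318 and 0.570 TPM in WT. In spermatocytes its groups overlapped, at 0.546, 3.17, 0.911 and 0 TPM in KO and 1.08, 0, 0 and 0.630 TPM in WT. In spermatogonia Zfp934 itself had 8.89, 12.1 and 7.66 CPM in KO and 8.89, 9.67 and 12.8 CPM in WT, and was not called. An L1Md_T element of 6382 bp near Zfp995 (chr17:21912466-21918847) had 4.90, 14.2, 4.28 and 7.01 TPM in KO and 0.549, 1.59, 2.37 and 0.489 TPM in WT spermatocytes, with Zfp995 at 4.53, 5.02, 5.59 and 3.54 CPM in KO and 2.72, 2.56, 2.395 and 3.10 CPM in WT. In spermatogonia the groups of this element overlapped, at 5.74, 15.9 and 8.25 TPM in KO and 3.16, 7.62 and 14.2 TPM in WT. In spermatocytes the log2 fold change of Zfp995 was 0.81, and it was not called between genotypes.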

How the data were processed

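PolyA RNA libraries were sequenced from sorted Spg (3 KO, 3 WT) and Spc (4 KO, 4 WT). The deposited tables hold counts per gene and per TE subfamily that the authors made with cutadapt 4.0, STAR 2.7.3a (GRCm38) and TEtranscripts, and beside them the authors' DESeq2 1.44.0 fold changes and p-values, which were not used. The deposited TPM tables, which the authors produced by TElocal, give TE copies alone, 1 value per copy and library. Reads with several alignments were kept, and TEtranscripts and TElocal were run in multi mode with strand, but how that mode splits a read between near-identical genes is not described in the sources used here. The authors left out 1 further Spg library per genotype for RNA quality, not analysed here. Spg columns named rep4 were matched to samples by the labels, where they stand for the sample titled rep3.

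The rule for the members uses names alone, but the rule and the gene lists were chosen with earlier results of these data known. Counts were fitted over all genes and TE subfamilies with edgeR 4.0.16 (R 4.3.3): filterByExpr, TMM factors and the quasi-likelihood test, two-sided, with Benjamini-Hochberg adjustment over all features and calls under 0.01. KO and WT were compared in separate fits per stage, and the stage comparisons used 1 fit of all 14 libraries. Levels are CPM from the joint fit. A gene with at most 3 counts in each library of a group was taken to be at the floor, which covers counting error only. Annotation and proteins came from GENCODE M21 and promoters from RefSeq, read with Python 3.11.15. Members were named if called with a mean count of at least 20 and among the 8 largest folds in a direction, if among the 5 highest per kb in WT, if at least 90% identical to another, if at an extreme in zinc fingers, or if in the 3 largest clusters. Others were chosen after their values were seen.

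Alternatives were DESeq2 size factors, library totals, DESeq2 1.42.0, a filter of at least 1 count or of a mean count of at least 50, the replicate number as a block, each library left out, and Spc replicates 1 and 4 summed. Deviations of same-numbered Spg libraries correlated at 0.52, 0.17 and 0.18, each above the bound of 0.1 taken for pairing, though KO 2 and WT 3, of different numbers, correlated at 0.26, and in Spc at 0.08, 0.21, −0.01 and 0.12. Shares of all features come from the main fits alone, so counts of members under the alternatives stand without such a share. The scripts were tested on simulated data. Results of 1 gene of the silencing machinery list are not reported here.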

Additional observations from a re-analysis of the deposited data

Results flagged for a closer look

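In 119 groups of 4 spermatocyte libraries, 1 per member and genotype, with more than 3 counts in at least 1 library, 7 held a library that stood apart by Dixon's ratio of its gap to the range, and chance gives about 1 in 20. Of these, 4 were replicate 3 of WT, highest for Zfp976 (ratio 0.980), Zfp941 (0.962), Zfp971 (0.886) and Zfp948 (0.884). Replicate 2 of WT was lowest for Zfp985 (0.934) and Zfp949 (0.866), and replicate 3 of KO was lowest for Zfp975 (0.952). For Zfp969 and Zfp967 the ratio of 1.000 in WT rests on a single count in 1 library and 0 in the others, so that it says nothing of these libraries.

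The KO effect on the log2 scale differed between spermatocytes and spermatogonia, by the test of the difference, for Zfp956 (−3.34), Zfp992 (−2.33), Zfp931 (3.36), Zfp937 (2.74), Zfp963 (2.64) and Zfp988 (1.88).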

How the results depend on the processing

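Counts of called members stayed within 1.5 times of the reported count with DESeq2 size factors and with both filters in all 5 comparisons. In spermatocytes, where 21 were called, DESeq2's Wald test called 33 (22 higher, 11 lower) and the counts with replicates 1 and 4 summed gave 9. For the difference between stages, where 6 were called, library totals gave 13, DESeq2 18 and the summed replicates 3. In KO cells DESeq2 called 2 where edgeR called 0. With 1 library left out, counts ran from 16 (without WT spermatocyte replicate 4) to 25 (without WT spermatocyte replicate 3) in spermatocytes, from 16 (without WT spermatocyte replicate 1) to 27 in WT cells between stages, from 3 (without KO spermatogonia replicate 3) to 17 (without WT spermatocyte replicate 3) for the difference between stages, and stayed at 0 in spermatogonia and in KO cells. The replicate block gave 0 calls in spermatogonia, 15 in spermatocytes, 21 in WT cells, 7 for the difference and 0 in KO cells. Of the reported values of single genes under the alternatives, 1423 stayed on their side of the threshold, 203 lost the call and 1 gained it. The causes were not tested. Low counts limit the values of some members, above all in WT spermatocytes, and the marker sums differ between the groups.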
